A study of Mus musculus with 3 samples.

Results

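The genes described here are 10 mouse genes that prepare or oxidise polyunsaturated lipids: Acsl4, Lpcat3, Por, Alox5, Alox5ap, Alox12, Alox12e, Alox15, Ptgs1 and Ptgs2. They were chosen by name, and their data are the H3K9ac summits inside their gene records and within 20 kb of the record ends. These 10 were among 21887 protein-coding records on chromosomes 1 to 19, X and Y. Their windows held 32 of 33248 summits in the library labelled young HSC, 76 of 108787 in the library labelled old HSC and 34 of 45386 in the library labelled old HSC ABC. No summit was counted for more than 1 of the genes.

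H3K9ac, the acetylated form of a lysine in histone H3, marks promoters and enhancers in use. It was mapped by CUT&Tag, in which an antibody directs a transposase that cuts and tags the nearby DNA, in haematopoietic stem cells (HSCs) sorted from bone marrow. All 3 groups were wild type, with 1 library each from 50000 cells: young HSC (mice aged 2 to 4 months), old HSC and old HSC ABC (both 18 to 24 months). Ages were tied to groups by the y or o in the titles. The labels do not say what ABC stands for, and the sources used here do not give strain, sex or pooling of animals. A single library per group allowed no test, so all differences below are descriptions of these 3 libraries with no replicate check.

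Some facts about the libraries bear on every value. Sample names written inside the deposited lists disagree with the labels: the young-labelled list carries an old HSC name, the old-labelled list an old HSC ABC name and the ABC-labelled list another old HSC name. Libraries are named here by their labels, and each direction holds only for the libraries as labelled. Read depth was unknown, and the old-labelled list was the longest, so counts were repeated on equal-length lists made of the 33248 best-scored summits of each library. A summit at most 1 kb from a record end was present at 5, 6 and 3 of 8 HSC marker genes. These and the following counts are for the young, old and ABC lists, as labelled. Over all protein-coding genes the shares were 41.9%, 56.9% and 43.6%. Of the 6 HSC markers with a listed transcription start, 4, 6 and 3 had a summit within 1 kb of it. Over all genes with a listed start the shares were 45.5%, 57.9% and 46.3%. At record ends, granulocyte markers stood at 5, 8 and 5 of 8, and monocyte and macrophage markers at 3, 6 and 3 of 6. Megakaryocyte and platelet markers stood at 1, 4 and 2 of 6, and eosinophil and mast cell markers at 0, 2 and 1 of 6. Erythroid markers stood at 1, 3 and 2 of 6, B cell markers at 0, 1 and 0 of 4, T and NK cell markers at 0, 1 and 1 of 4, stroma and endothelium at 0, 2 and 1 of 4, and control genes of other tissues at 0, 4 and 0 of 6. In equal-length lists the 58 markers stood at 15, 21 and 15, against 15, 37 and 18 as deposited. Granulocyte markers then stood at 5, 8 and 4, monocyte and macrophage markers at 3, 3 and 3, and control genes of other tissues at 0, 0 and 0. The part that other cell types play in the results below was not tested.

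Polyunsaturated fatty acids are easily oxidised because of their repeated double bonds. ACSL4 joins them to coenzyme A and LPCAT3 places them in membrane phospholipids, where iron-dependent peroxidation can lead to ferroptosis, a form of cell death. POR passes electrons to cytochrome P450 enzymes, and lipoxygenases and cyclooxygenases add oxygen to polyunsaturated fatty acids by enzyme action. The products include leukotrienes, hydroxy fatty acids, prostaglandins and thromboxane, which are signals among blood cells, platelets and the vessel wall.

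The RefSeq promoter table for GRCm38.p6 lists a transcription start for 8 of the 10 genes, leaving Alox5ap and Alox15 without one. The 300 bases from 250 before to 50 after the listed start are printed for 5 genes whose starts the results turn on. Acsl4 and Por carried summits near the start in all 3 libraries, Lpcat3 and Ptgs2 each lacked one in a different library, and Alox12e had none in the old-labelled library. Capitals mark matches on either strand. The motifs searched were the GC box (GGGCGG), the box named after its letters CCAAT, the TATA box (TATAAA), the E-box (CACGTG), the half-site of the cyclic AMP response element, or CRE (TGACG), and a palindrome of the C/EBP type (TTGCGCAA). Neighbouring matches can overlap, as the last 2 of Ptgs2 do.
Acsl4 (chrX:142390486-142390785, minus strand): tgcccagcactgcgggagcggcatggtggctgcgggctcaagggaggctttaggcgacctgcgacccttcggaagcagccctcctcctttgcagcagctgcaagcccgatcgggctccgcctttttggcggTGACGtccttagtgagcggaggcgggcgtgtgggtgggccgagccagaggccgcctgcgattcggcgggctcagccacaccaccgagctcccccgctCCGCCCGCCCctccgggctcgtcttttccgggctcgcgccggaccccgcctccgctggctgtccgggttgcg
Por (chr5:135688895-135689194, plus strand): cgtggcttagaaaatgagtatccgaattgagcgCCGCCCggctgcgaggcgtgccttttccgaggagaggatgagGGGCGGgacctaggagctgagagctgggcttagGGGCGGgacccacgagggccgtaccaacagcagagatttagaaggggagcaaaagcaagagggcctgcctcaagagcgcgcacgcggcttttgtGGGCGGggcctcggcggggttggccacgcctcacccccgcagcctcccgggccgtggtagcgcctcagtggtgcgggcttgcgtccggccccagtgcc
Lpcat3 (chr6:124662854-124663153, plus strand): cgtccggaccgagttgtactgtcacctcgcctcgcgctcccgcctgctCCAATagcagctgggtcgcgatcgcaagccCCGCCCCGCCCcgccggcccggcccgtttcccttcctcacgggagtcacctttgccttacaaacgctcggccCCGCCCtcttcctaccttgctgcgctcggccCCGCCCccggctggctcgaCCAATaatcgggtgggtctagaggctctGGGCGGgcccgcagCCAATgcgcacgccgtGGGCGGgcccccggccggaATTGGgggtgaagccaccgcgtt
Ptgs2 (chr1:150099781-150100080, plus strand): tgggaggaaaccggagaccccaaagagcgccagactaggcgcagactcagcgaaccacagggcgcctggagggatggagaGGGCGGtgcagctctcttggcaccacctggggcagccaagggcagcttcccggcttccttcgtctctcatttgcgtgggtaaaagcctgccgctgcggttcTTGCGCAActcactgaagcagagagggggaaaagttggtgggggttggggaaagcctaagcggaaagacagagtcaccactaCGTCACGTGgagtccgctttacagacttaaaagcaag
Alox12e (chr11:70322481-70322780, minus strand): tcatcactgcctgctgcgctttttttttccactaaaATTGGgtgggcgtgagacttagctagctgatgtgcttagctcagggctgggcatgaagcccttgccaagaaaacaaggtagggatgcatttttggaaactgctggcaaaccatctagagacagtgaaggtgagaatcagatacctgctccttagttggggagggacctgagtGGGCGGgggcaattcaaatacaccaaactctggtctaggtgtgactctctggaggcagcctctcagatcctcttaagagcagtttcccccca

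These promoters differ in their content of CpG, the dinucleotide that is dense at most widely used promoters. Lpcat3 has 36 CpG in 300 bases, Acsl4 33, Por 27, Ptgs2 16, Alox12 8, Alox5 7, Ptgs1 6 and Alox12e 3, against a median of 13 over 21263 promoters of protein-coding genes. Thus 4 of the 8 genes lie above that median and 4 below it. Over all genes with a listed start, a summit within 1 kb of the start was found in 69.3% (young), 82.1% (old) and 68.8% (ABC) of the 8748 genes with at least 15 CpG. The corresponding shares of the 8744 genes with fewer CpG were 21.7%, 33.6% and 23.8%. GC boxes occur in 46.2% of all promoters. They number 6 in Lpcat3, 4 in Por, 3 in Alox12, 2 in Acsl4 and 1 each in Alox5, Ptgs2 and Alox12e, and Ptgs1 has none. CCAAT boxes, found in 38.2% of promoters, number 4 in Lpcat3 and 1 in Alox12e. The CRE half-site, present in 23.6% of promoters, occurs once in Acsl4 and once in Ptgs2. In Ptgs2 it overlaps an E-box, a motif of 7.84% of promoters, just after the start. TTGCGCAA in Ptgs2 is held by 47 of the 21263 promoters (0.221%). TATAAA, held by 12.6% of all promoters, has no match in the 8 promoters.

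**Figure D1:**
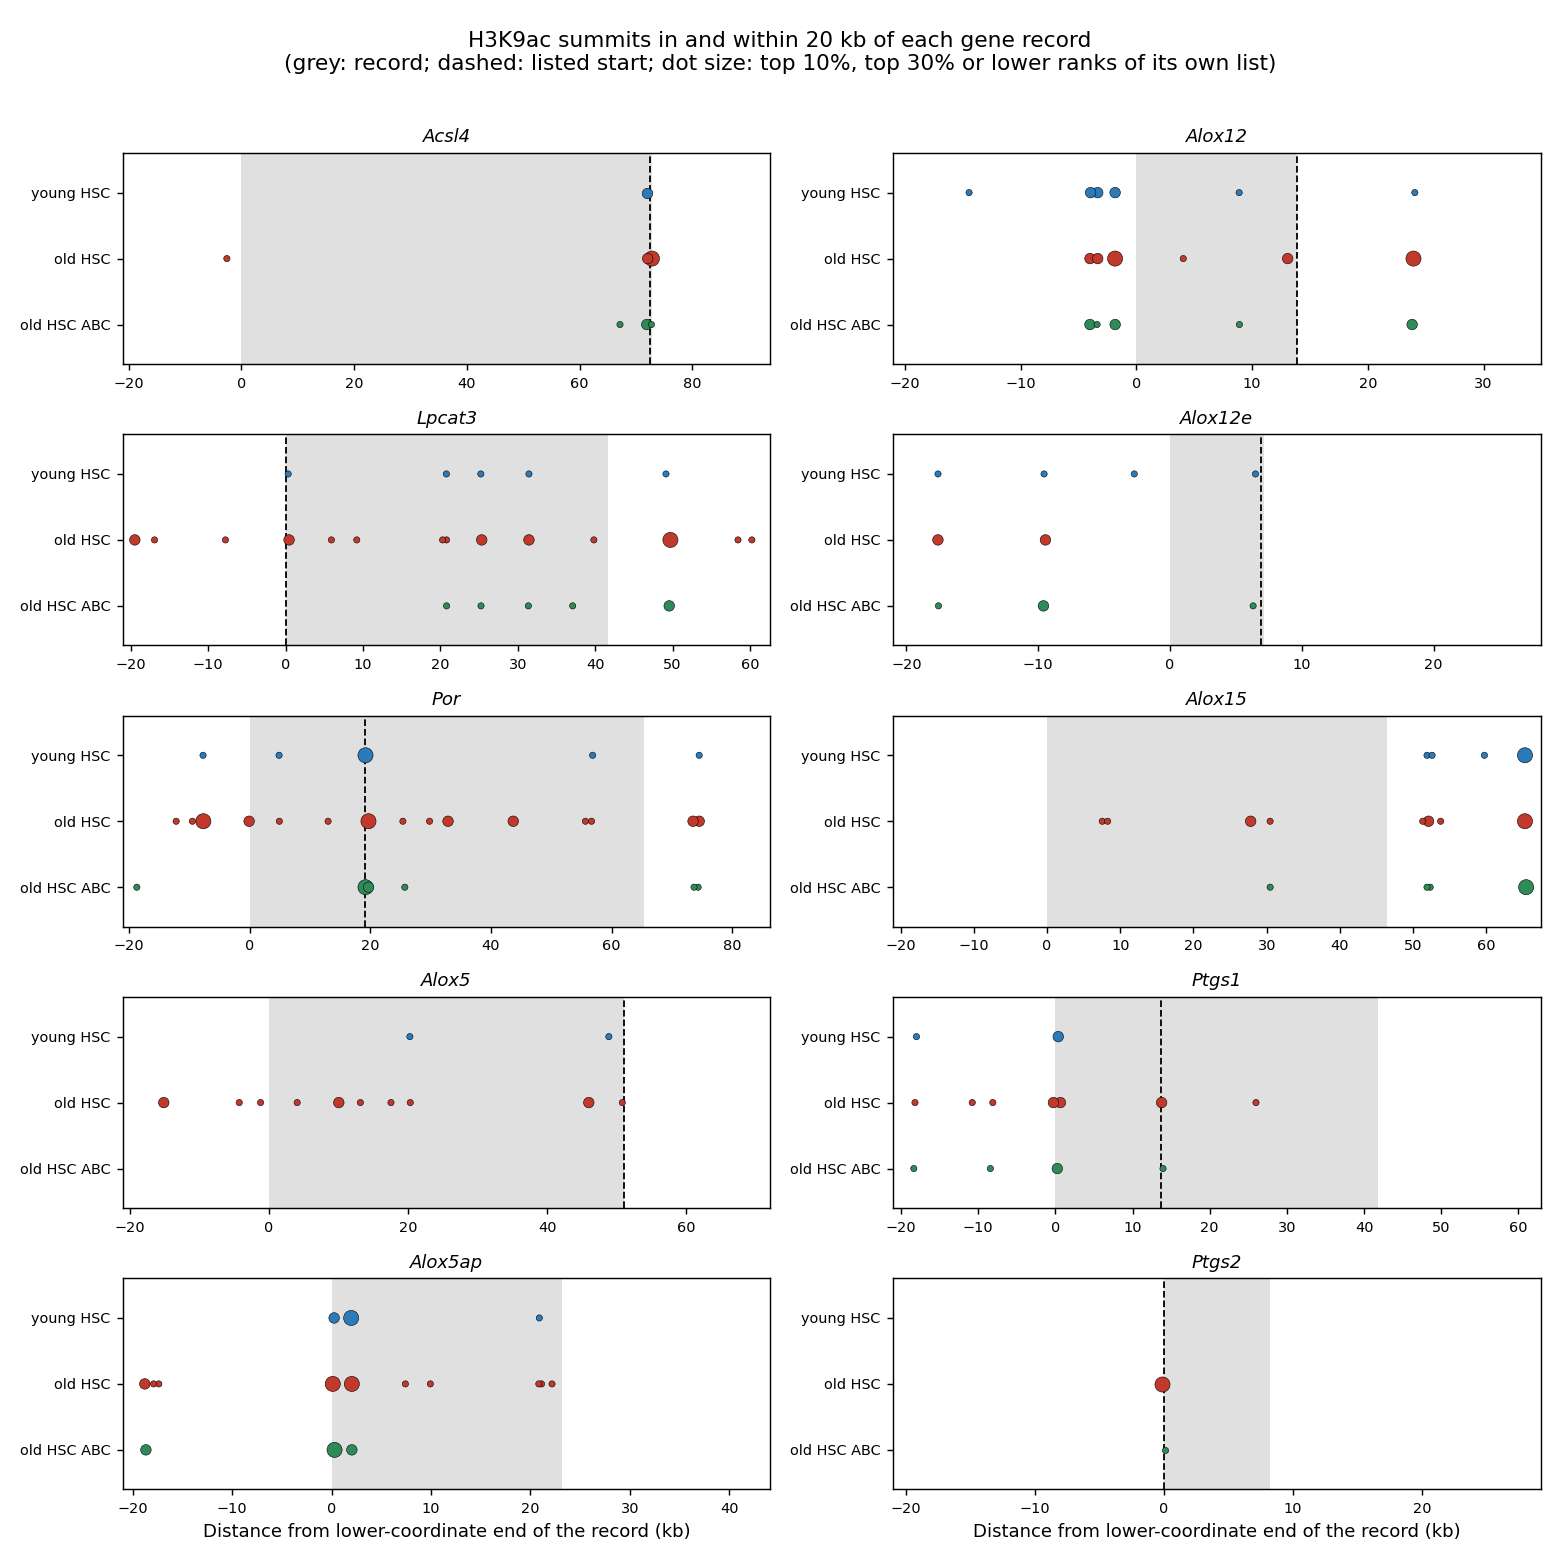
Summits of the 3 libraries (rows, young-, old- and ABC-labelled) along each of the 10 gene records, in kb from the lower-coordinate end of the record. Grey marks the record, the dashed line the listed start, and dot size the place of the summit in its own list. Por has a large dot at its listed start in all 3 rows, and the ABC-labelled row of Alox5 is empty.

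A start summit is a summit no more than 1 kb from the listed start of a gene, and an end summit is no more than 1 kb from an end of its record. The authors' score of a summit is taken to be the −log10 of the q-value that peak calling gave it in its own library. Because it moves with depth it served to order summits within a list, where rank 1 is the best. The 1 exception is a repeat of the counts with a minimum score of 5 in every list. Start summits were found at 4 of the 8 genes in the young-labelled list, against 45.5% of the 17492 protein-coding genes with a listed start. In the old-labelled list 7 of the 8 had one (57.9% of all genes), and in the ABC-labelled list 5 of the 8 (46.3%). Acsl4 and Por had one in all 3 libraries, and 40.6% of all genes did. In the lists as deposited each of the 8 had one in at least 1 library, whereas 40.0% of all genes had none. With equal-length lists Alox5 had none in any library, and no share of all genes is given for that case. Of the 10 genes 5, 8 and 5 had end summits in the libraries labelled young, old and ABC, against 41.9%, 56.9% and 43.6% of all genes. In equal-length lists 6 of the 8 genes had an old-labelled start summit (49.6% of all genes) and 5 an ABC-labelled one (43.8%). One gene more or less moves a share of the 8 genes by 12.5 percentage points and a share of the 10 by 10.

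**Figure D2:**
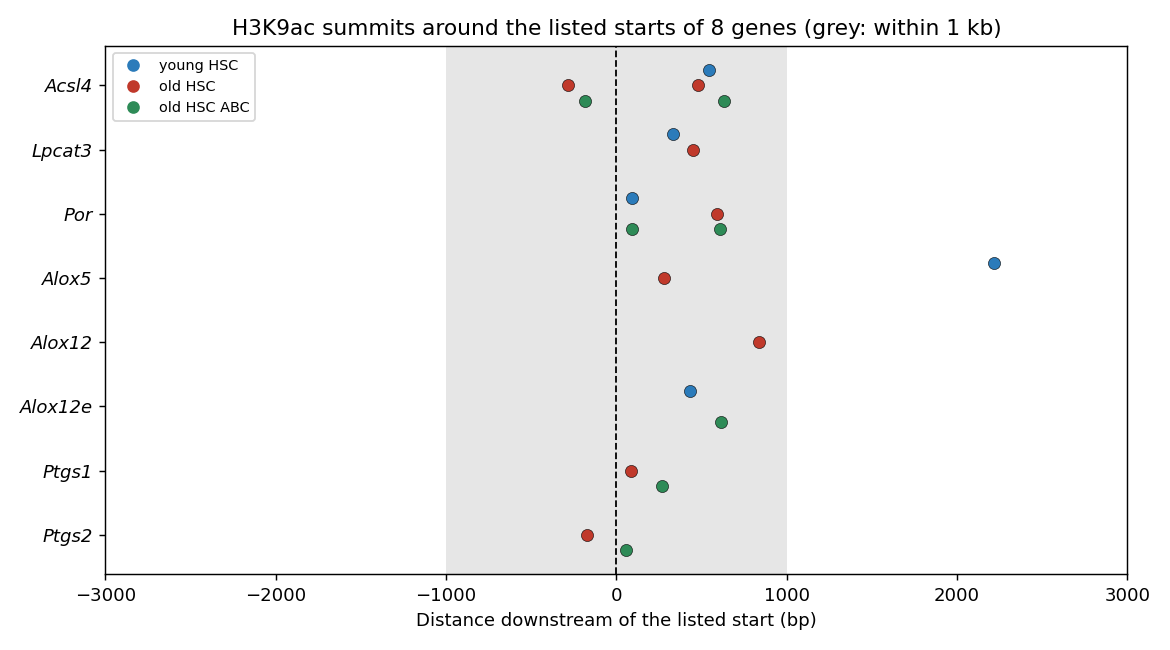
Summits within 3 kb of the listed start of 8 genes, in bp downstream of the start along the gene (negative values lie upstream), coloured by library. Grey marks the 1 kb on each side that defines a start summit. Only Acsl4 and Por have dots of all 3 colours in the grey zone.

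Acsl4, on chromosome X from 142317993 to 142390802, encodes the ligase that activates arachidonic acid and similar fatty acids. All of its start summits lay in 2 small zones on both sides of the start. Downstream, the young-labelled summit was 546 bp from the start (score 8.36, rank 7778), the old-labelled one 476 bp (14.6, rank 11082) and the ABC-labelled one 631 bp (7.40, rank 8987). These 3 positions lay within 155 bp of each other. The old-labelled list had another summit 282 bp upstream (19.7, rank 8030), and the ABC-labelled list one 185 bp upstream (4.11, rank 21346), which falls inside the printed promoter. No upstream summit was listed in the young-labelled library. Inside the 72810 bp Acsl4 record lay 1 young-, 1 old- and 3 ABC-labelled summits, so most of its length held none.

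Lpcat3, on chromosome 6 from 124663094 to 124704716, encodes the acyltransferase that puts polyunsaturated chains into phospholipids. Its start was marked 332 bp downstream in the young-labelled list (5.18, rank 13854) and 448 bp downstream in the old-labelled list (13.2, rank 12311). The ABC-labelled list had no summit closer to the start than 20799 bp. The same list did hold 4 summits further inside the record. At 3 places in the gene body all 3 libraries had a summit: 124683388 to 124683903, 124688326 to 124688442 and 124694466 to 124694544. Of the other 4 inner places, 124669021, 124672298 and 124702933 held an old-labelled summit only and 124700193 an ABC-labelled one only. The best-scored summits in the Lpcat3 window for the old- and ABC-labelled lists, at 124712819 (rank 4862) and 124712665 (rank 5194), lay inside the neighbouring record of Phb2, which encodes a prohibitin of mitochondria (124712289 to 124716945). They cannot be assigned to Lpcat3.

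Por, on chromosome 5 from 135670040 to 135735326, encodes the reductase that hands electrons to cytochrome P450 enzymes. Its listed start at 135689145 lies 19105 bp inside the record. Near that start all 3 libraries had a summit: 93 bp downstream in the young-labelled list (17.1, rank 2335), 588 bp in the old-labelled list (30.9, rank 4324), and 92 and 607 bp in the ABC-labelled list (11.7, rank 4210, and 8.95, rank 6673). The young- and ABC-labelled summits at 135689238 and 135689237 were 1 bp apart. Among genes with a start summit Por stood at place 1760 of 7963 in the young-labelled list, 3311 of 10123 in the old-labelled list and 2816 of 8096 in the ABC-labelled list. In each list this was the best place of any of the 8 genes. By record ends, in contrast, Por counted as marked in the old-labelled list only, through a summit 90 bp outside the lower end (11.0, rank 14971). The nearest young- and ABC-labelled summits to an end were 4872 and 8368 bp away. The end difference of Por is therefore at a place 19195 bp from the listed start, and the start itself was marked in every library. The Por window held 15 old-labelled summits, more than that of any other of the 10 genes, against 5 young- and 6 ABC-labelled ones.

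Alox5 and its partner Alox5ap encode 5-lipoxygenase and the membrane protein FLAP that presents arachidonic acid to it, and both are known from leukocytes. They differed in these lists. Alox5ap, on chromosome 5 from 149265004 to 149288153, had summits in all 3 libraries at 2 places, near the lower end of its record and about 2 kb inside it. At the first place the young-labelled summit lay 253 bp from the end (10.2, rank 5931), the old-labelled one 117 bp (38.3, rank 2828) and the ABC-labelled one 294 bp (12.6, rank 3655). At the inner place the young-labelled summit was at 149266972 (16.3, rank 2611). The old-labelled (43.2, rank 2135) and ABC-labelled (10.6, rank 5072) summits were both at 149267040, the same base. Of the 10 genes, Alox5ap had the best-placed end summit in the old- and ABC-labelled lists, at place 2428 of 12457 genes and 2802 of 9533. In the young-labelled list, where it stood at place 4440 of 9172, Ptgs1 was ahead of it at 3728.

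Alox5, on chromosome 6 from 116410071 to 116461178, had no ABC-labelled summit in its window, and the nearest one to an end of its record was 38662 bp away. The young-labelled list had 2 summits in the record, 2215 bp from the start (2.52, rank 28146) and at 116430339 (2.16, rank 30159). The old-labelled list had 7 in the record, of which one lay 278 bp downstream of the start (3.15, rank 74924). That start summit was too weak to enter the equal-length list. The best old-labelled summit of Alox5 was 5101 bp inside from the start, at 116456077 (10.5, rank 15674). The inner summits between 116413203 and 116448279 also lie in the record of Gm38880, a long non-coding RNA, and cannot be assigned to 1 of the pair. The other 3 of the 10 old-labelled summits in the window lay in the neighbouring record of Marchf8, a ubiquitin ligase gene (116337599 to 116409540). In equal-length lists the Alox5 window held 2 young-, 3 old- and no ABC-labelled summits, and 1 of the 3, at 116394939 (rank 27113), was in Marchf8. All 8 granulocyte markers had an old-labelled end summit, and 5 had one in each of the other libraries. Whether granulocyte DNA contributed to the Alox5 and Alox5ap summits was not tested.

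The 3 genes Alox12, Alox12e and Alox15 lie near each other on chromosome 11 and encode platelet-type 12-lipoxygenase, an epidermal-type 12-lipoxygenase and the leukocyte-type 12/15-lipoxygenase. Alox12 (70241457 to 70255380) had a start summit in the old-labelled list, 835 bp downstream (11.6, rank 14071). The nearest summit to its start was 5025 bp away in the young-labelled list and 5003 bp in the ABC-labelled list. These are at 70250345 (2.28, rank 29536) and 70250367 (2.04, rank 42273), 22 bp apart and inside the gene. Beside the lower end of Alox12 all 3 libraries had summits at 3 places, and these lay in or within 53 bp of other genes, 0610010K14Rik and Rnasek. The closest, at 70239626 to 70239632, lay 1831 (old), 1830 (young) and 1825 bp (ABC) from the Alox12 record but inside that of Rnasek, a ribonuclease gene (70238123 to 70239852). A further place shared by all 3 lay 9921 to 10154 bp upstream of the start, at 70265291 to 70265524. It falls inside the record of Gm40191, a long non-coding RNA (70239011 to 70269430) that also spans the whole of Alox12, so no summit in Alox12 can be assigned to 1 of the pair.

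At Alox12e (70315610 to 70322720) the order of the libraries was the other way round. The young-labelled list had a start summit 434 bp downstream (1.75, rank 32389 of 33248) and the ABC-labelled list one 615 bp downstream (4.90, rank 16700 of 45386). The nearest old-labelled summit was 16370 bp from the start and 9450 bp from an end. The young-labelled summit was thus among the last of its list. At 2 places below the gene, 70298002 to 70298043 and 70306009 to 70306160, all 3 libraries had a summit. The young-labelled list had a further weak summit below the gene, at 70312899 (1.80, rank 32197).

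Alox15 (70344147 to 70390538) had no end summit in any library, as was so for 40.1% of all protein-coding genes. Its record held 4 old-labelled summits, of scores 2.43 to 5.97, and an ABC-labelled one at 70374618 (4.67, rank 17708), 3 bp from the old-labelled summit at 70374615 (5.54, rank 36496). The young-labelled list had none in the record. All other summits in its window lay in Pelp1, a coregulator gene (70392881 to 70410031). They include the best-ranked summits of all 10 windows in each list, at 70409418 (young, rank 1475), 70409417 (old, rank 1949) and 70409578 (ABC, rank 1492). Pelp1 was the nearest coding record for 4 of 4 young-, 4 of 8 old- and 3 of 4 ABC-labelled summits of the Alox15 window.

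Ptgs1 and Ptgs2 encode cyclooxygenases, the first used in many cells including platelets and the second induced by inflammatory signals and often read as a marker of ferroptosis. Ptgs1, on chromosome 2 from 36216742 to 36258593, has its listed start at 36230426, 13684 bp inside the record. Summits near the lower end of the record were present in all 3 libraries, at 379 bp in the young-labelled list (11.8, rank 4761), 244 and 657 bp in the old-labelled list (7.60, rank 23196, and 10.8, rank 15271) and 256 bp in the ABC-labelled list (8.53, rank 7154). At the listed start, summits were present 83 bp downstream in the old-labelled list (8.16, rank 21479) and 267 bp downstream in the ABC-labelled list (3.04, rank 31374). The nearest young-labelled summit to that start was 13305 bp away. Ptgs1 therefore did not differ between libraries by record ends, and by listed start it was marked in the old- and ABC-labelled libraries and not in the young-labelled one. In the old-labelled list both end summits and the start summit were among the 33248 best, and so were the ABC-labelled ones.

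Ptgs2, on chromosome 1 from 150100031 to 150108234, had a single summit in each of 2 libraries and no other in its window. The old-labelled summit lay 174 bp upstream of the start (17.0, rank 9457), inside the printed promoter, and the ABC-labelled one 56 bp downstream (4.60, rank 18101), just past the printed bases. The nearest young-labelled summit to an end was 56834 bp away. Both summits were kept in equal-length lists. The old-labelled one at 150099857 also lies inside the record of Ptgs2os, a long non-coding RNA whose record ends at 150099874, so it cannot be assigned to 1 of the pair. Absence from a list means that no summit passed the authors' threshold, and at unknown depth it does not show that the mark was absent.

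The old- and young-labelled libraries differ in the age given by their labels. With 1 library each, and with disagreeing names inside the lists, age cannot be told apart from library. Start summits in the old-labelled list with none in the young-labelled one were found at 4 of the 8 genes, Ptgs1, Ptgs2, Alox5 and Alox12 (13.5% of all genes). The reverse held for 1, Alox12e (1.11% of all genes). In equal-length lists these counts were 3, since Alox5 dropped out, and 1, against 6.35% and 2.30% of all genes. By record ends 4 of the 10 genes differed one way, Ptgs2, Por, Alox5 and Alox12 (16.6% of all genes), and 1 the other way, Alox12e (1.59%). Of the old-labelled summits that made these differences at starts, the best ranked was that of Ptgs2 and the weakest that of Alox5.

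The ABC- and old-labelled libraries share the age range of their labels and differ in the ABC label, with 1 library each. Start summits in the old-labelled list with none in the ABC-labelled one were found at 3 of the 8 genes, Lpcat3, Alox5 and Alox12 (13.2% of all genes). The reverse held again for Alox12e alone (1.64%). In equal-length lists 2 genes, Lpcat3 and Alox12, remained on the old-labelled side (8.04% of all genes) and Alox12e on the other (2.30%). By record ends Por was added, so that 4 of the 10 were on the old-labelled side (15.6%) and 1 on the ABC-labelled side (2.23%). The old-labelled library serves in both of these comparisons, so their shared members are not separate evidence.

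Set side by side, the ABC- and young-labelled libraries differed at 3 starts. Ptgs1 and Ptgs2 had a start summit in the ABC-labelled list only (5.02% of all genes), and Lpcat3 in the young-labelled list only (4.26%). Equal-length lists gave the same 3 genes, against 3.77% and 5.48% of all genes. By record ends 1 gene was on each side, Ptgs2 (6.43%) and Lpcat3 (4.78%). The listed starts of Ptgs1 and Ptgs2 were therefore marked in both libraries labelled old and in neither case in the young-labelled one. No share of all genes is given for this joint pattern. The ABC-labelled start summits of Ptgs1 and Ptgs2 had scores of 3.04 and 4.60, against a median of 3.92 over the whole ABC-labelled list. By record ends Ptgs1 was marked in all 3 libraries. The 2 libraries labelled old differed from each other at the starts of Lpcat3, Alox5, Alox12 and Alox12e.

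**Figure D3:**
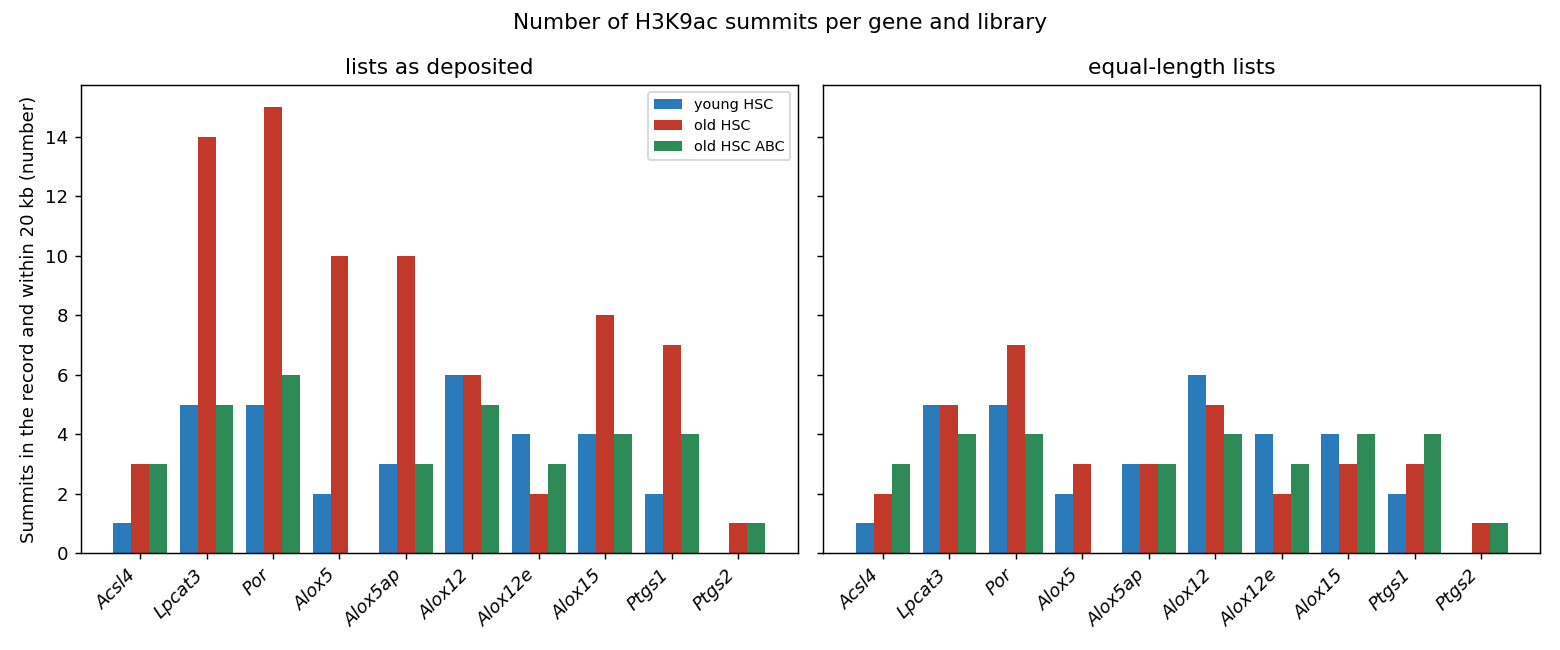
Number of summits in the record and within 20 kb, per gene (x axis) and library (bar colour), with lists as deposited on the left and equal-length lists on the right. The old-labelled bars reach 15 (Por) on the left and 7 (Por) on the right, where no library is highest throughout.

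The longest list, the old-labelled one, also had the most summits in the windows. The median number per gene window was 3.5 young-, 7.5 old- and 3.5 ABC-labelled summits, against 2, 6 and 3 over all protein-coding genes. The 10 records had a median length of 41738 bp against 17169 bp over all genes. In equal-length lists the windows held 32, 34 and 30 summits in all. The deposited lists held 76 old-labelled summits there against 32 and 34.

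When summits of the 3 lists were joined into places where neighbours lay within 500 bp, the windows held 82 places. All 3 libraries had a summit at 19 of them, spread over 8 of the 10 genes, and Alox5 and Ptgs2 had none such. The summits of a shared place spanned 6 to 901 bp, with a median of 161 bp. At 11 of the 19 the gene itself was the nearest protein-coding record, and at 8 it was a neighbour such as Rnasek, Pelp1, Phb2 or Tmem120a. The old-labelled library, which has the longest list, alone had 40 of the 82 places. Their summits had a median score of 3.22, and 9 of the 40 were among the 33248 best of that list. Lpcat3, Por and Alox5 accounted for 8, 8 and 9 of these places. Places were not counted over all genes, so these numbers do not show a trait of the 10 genes.

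The share of summits with a neighbour in another list was above that of the whole list in each of the 6 directions for lists as deposited. Of the young-labelled summits in the windows, 25 of 32 (78.1%, 95% Clopper-Pearson interval 60.0 to 90.7) lay within 500 bp of an old-labelled one, against 77.4% of the whole list. The share of ABC-labelled summits with an old-labelled neighbour was 85.3% (68.9 to 95.0; whole list 72.4%). With a young-labelled neighbour it was 64.7% (46.5 to 80.3), and here the whole-list value, 43.5%, lay below the interval. For the lists as deposited, the other 5 intervals held the whole-list value. In equal-length lists the exception was another one: 23 of 30 ABC-labelled summits had an old-labelled neighbour (76.7%, 57.7 to 90.1; whole list 56.1%), whereas the share with a young-labelled neighbour, 66.7% (47.2 to 82.7), had an interval that held its whole-list value of 52.7%. The old-labelled share with a young-labelled neighbour, 52.9%, was then below the 55.1% of the whole list. These intervals cover counting error only, and summits of a gene are not independent. Whether an interval held a whole-list value is therefore not a test. The windows lie at genes and some of their neighbours, whereas a whole list is not limited to gene windows.

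The other genes of the pathway, 67 in 8 lists, were marked at an end in 37 (young), 49 (old) and 41 (ABC) cases. These are 55.2%, 73.1% and 61.2%, against 41.9%, 56.9% and 43.6% of all genes, the background also for each list below. In equal-length lists the counts were 37, 37 and 36, for which no share of all genes is given here. In all 3 libraries 33 had an end summit (36.3% of all genes) and in none 15 (40.1% of all genes). Of 13 genes of membrane lipid remodelling 8, 10 and 8 were marked as deposited and 8, 9 and 8 in equal-length lists. Elovl5, a fatty acid elongase, was marked at an end by old-labelled (29.8, rank 4576) and ABC-labelled (6.47, rank 11022) summits, with a young-labelled summit at 1046 bp, just past the limit. Lpcat2, an acyltransferase related in function to LPCAT3, was marked in the young-labelled (5.35, rank 13372) and old-labelled (7.39, rank 24359) lists, while the closest ABC-labelled summit lay at 7520 bp. The same libraries held the start summits of Lpcat3. The 6 phospholipases stood at 3, 3 and 5 as deposited and at 3, 3 and 3 in equal-length lists. The 6 leukotriene and lipoxin enzymes stood at 5, 5 and 5 in both, among them Lta4h and Ltc4s.

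The other 3 lipoxygenase genes stood at 0, 2 and 1 as deposited and at 0, 0 and 1 in equal-length lists. Alox8 was marked by an old-labelled (5.25, rank 38686) and an ABC-labelled (4.40, rank 19727) summit and had a young-labelled summit at 1359 bp. Prostanoid enzymes stood at 5, 7 and 7 of 10 as deposited and at 5, 6 and 5 in equal-length lists, with Cbr1, a carbonyl reductase that acts on prostaglandins, marked as deposited in the old-labelled (11.3, rank 14430) and ABC-labelled (1.85, rank 43487) lists. Its nearest young-labelled summit was 3778 bp away. Eicosanoid receptors stood at 6, 11 and 6 of 15 as deposited and at 6, 4 and 5 in equal-length lists, so most old-labelled receptor summits were not among the 33248 best. Ptger2, a prostaglandin E2 receptor, was marked in the young-labelled (9.74, rank 6296) and ABC-labelled (13.7, rank 3113) lists, with an old-labelled summit at 1398 bp. The leukotriene B4 receptor gene Ltb4r1 (ranks 10748, 53554 and 8267) and the prostaglandin D2 receptor gene Ptgdr (ranks 14456, 44633 and 27368) were marked in all 3 lists, and their old-labelled summits were too low in rank for the equal-length list. Genes of cytochrome P450 electron transfer and epoxide metabolism stood at 4, 5 and 4 of 7, and at 4, 4 and 4 in equal-length lists. Brakes and regulators of lipid peroxidation stood at 6, 6 and 5 of 7 either way, the difference being Aifm2, which encodes the ubiquinone reductase FSP1. Aifm2 had end summits in the young-labelled (4.93, rank 14518) and old-labelled (8.59, rank 19994) lists and an ABC-labelled summit at 1597 bp. By listed start these genes stood at 7, 6 and 6 of 7. Gpx4 had a start summit in every list and no end summit, and Aifm2 a start summit in the young-labelled list only.

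**Figure D4:**
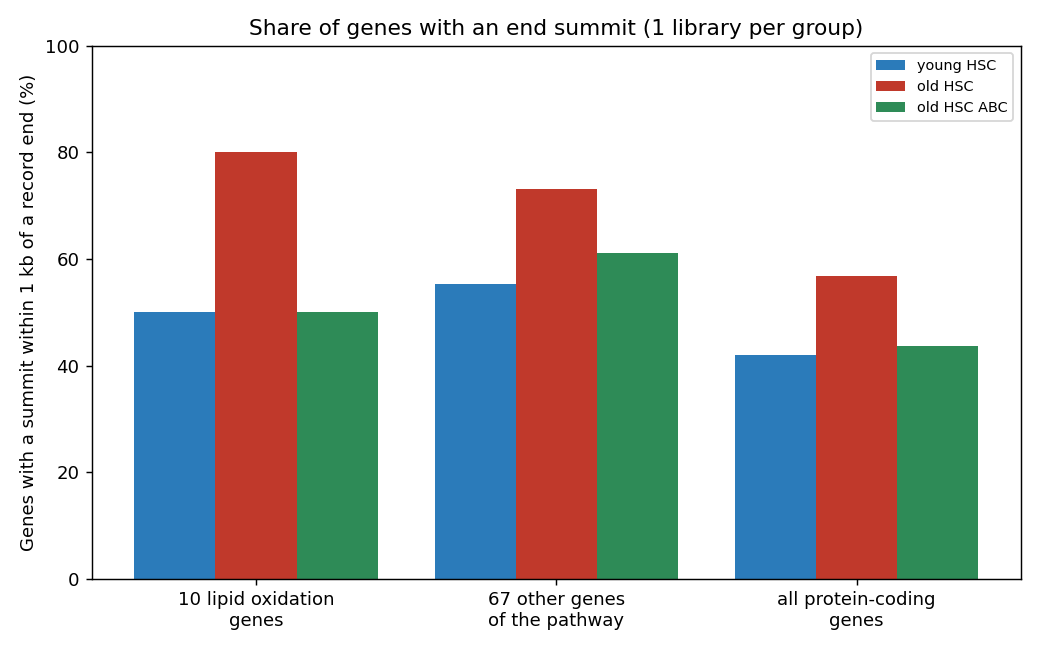
Percent of genes with a summit within 1 kb of a record end, for the 10 genes, 67 other genes of the pathway and all protein-coding genes, by library. The lists are those as deposited, and in each set the old-labelled bar is the highest, at 56.9% for all genes.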

How the data were processed

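Each of the 3 samples had 1 deposited list of summits of 1 bp with a score per summit. The authors' score is taken as the −log10 of a q-value, since the lowest scores lie just above 1.30, which corresponds to q = 0.05. The submitters' processing notes name MACS2, BWA, Picard and edgeR, and mm10 as build. The sources used here do not give roles, versions, settings, any control library or the read depth. Each list belongs to 1 sample, so summits were taken as called per library.

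Gene records and promoters came from RefSeq tables of GRCm38.p6, the assembly of mm10. A listed start is the base 250 after the first base of its promoter. Record ends were the main measure, as planned, and listed starts the alternative. Exons, introns and UTRs were not analysed here. Scores and ranks (1 is best) were used within a list only. No test was run. Shares have exact 95% Clopper-Pearson intervals. The functions recovered simulated summits placed at known distances.

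The 10 genes and all lists were chosen with earlier results of these data known. Of 68 other pathway genes 67 matched by symbol or synonym (Peds1 did not), as did all 58 markers. Named were all 10 genes, up to 3 genes per pathway list marked in 1 or 2 libraries in equal-length lists, by best rank, and genes holding the best summits of a window. Lta4h, Ltc4s and Gpx4 were named after their values were seen. Python 3.11.15, pandas 2.3.3, numpy 2.4.6, scipy 1.17.1 and matplotlib 3.10.9 were used.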

Additional observations from a re-analysis of the deposited data

How the results depend on the processing

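No paired analysis was possible because each group had 1 library, and no library could be left out. Of 99 values recomputed with other settings, 80 kept within 1.5 times the reported count or within its interval, and 19 did not. With summits of a score of at least 5, the summits in the windows fell to 13 (young), 39 (old) and 13 (ABC), the genes with an ABC-labelled end summit to 3, and the genes marked in young but not old, in ABC but not old and in ABC but not young to 0 each. Under that score 92.3% of young-labelled and 100% of ABC-labelled summits had an old-labelled neighbour. The cut kept 14349 (young), 42251 (old) and 16287 (ABC) summits of the whole lists. Because scores move with depth, it may not be equally strict in each list. In equal-length lists the old-labelled windows held 34 summits, and the shares were 59.4% (young near old), 52.9% (old near young) and 64.7% (old near ABC), against 55.8%, 55.1% and 55.5% over the whole equal-length lists. With ends within 500 bp, 3 genes had a young-labelled end summit, 0 were marked in young or ABC but not old, and 2 in ABC but not young. By listed start the last count was 2 as well. Counting only summits whose nearest coding record was the gene left 21 young-labelled ones. Shorter lists and narrower windows hold fewer summits by construction. Merging close summits, ends within 2 kb, a 10 kb flank and sharing within 250 or 1000 bp changed no value beyond these limits. The Alox12e difference rests on 1 young-labelled summit near the end of its list and 1 ABC-labelled summit of score 4.90, and was absent at a score of 5.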
